A study of Rattus norvegicus with 12 samples.

Results

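The genes of S phase entry and DNA replication were followed in rat liver as a set of 10 listed members: the cyclins Ccnd1, Ccne1 and Ccne2, the loading factor Cdc6, the helicase subunits Mcm2, Mcm3, Mcm5 and Mcm6, the sliding clamp Pcna and the nucleotide enzyme Tyms. A member was read from the probe set whose annotation gave that symbol and no other. This held for 8 of the 10, each with 1 probe set, out of 13215 genes named in this way. Mcm3 and Mcm6 had no such probe set and their RNA was not analysed here. The members were listed by name, and no measured value entered the choice of probe sets.

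Livers came from 12 Sprague Dawley rats, 1 array per rat and 4 rats per diet. The first group was fed NO-naproxen, a naproxen derivative with a nitric oxide-releasing group, at 550 mg/kg diet for 7 days. The second was fed naproxen, a nonsteroidal anti-inflammatory drug and inhibitor of cyclooxygenases, at 400 mg/kg diet for 7 days, and the third the control diet, with no drug, for 7 days. The dietary amounts of the drugs differ, and no age of the rats was given. All rats were housed singly with free access to food and water.

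Cyclin D1, encoded by Ccnd1, activates its kinases early in G1 phase, which phosphorylate the retinoblastoma protein and release E2F transcription factors. E2F factors then raise transcription of the E cyclins, which drive the step into S phase, and of replication genes. Cdc6 loads the ring-shaped MCM helicase, of which Mcm2, Mcm3, Mcm5 and Mcm6 encode subunits, onto origins. Pcna encircles DNA and holds the polymerases on it, and Tyms makes thymidylate for DNA. Genes of mitosis follow later in the cycle and are controlled largely through other promoter elements, among them the CHR element. Adult hepatocytes are mostly quiescent, and enter S phase in numbers mainly after injury or loss of liver tissue.

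Promoter windows of members are shown because E2F factors, which link the cyclins to the replication genes, are known to bind letters of this type. Windows of 300 bases, 250 before and 50 after the annotated start, were taken from RefSeq on build GRCr8. They were at hand for 7 of the 10 members, of which Ccne1, Mcm2, Mcm5, Pcna and Tyms were also measured. The E2F-type letters searched were TTTCCCGC, TTTGGCGC, TTTCGCGC and TTTGCCGC on both strands, and are in capitals below. Where one match overlaps another, both are covered by the same capitals. Mcm2 and Mcm5 are shown for the helicase, Tyms for the nucleotide supply, and Ccne1 for the cyclin with the largest measured difference from control.
Mcm2 promoter: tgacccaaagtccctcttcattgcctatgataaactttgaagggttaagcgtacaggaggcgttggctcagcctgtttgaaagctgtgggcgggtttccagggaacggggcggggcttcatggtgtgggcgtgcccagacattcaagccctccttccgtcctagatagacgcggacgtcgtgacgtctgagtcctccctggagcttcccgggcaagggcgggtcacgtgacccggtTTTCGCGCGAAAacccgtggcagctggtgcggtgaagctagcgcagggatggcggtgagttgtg
Mcm5 promoter: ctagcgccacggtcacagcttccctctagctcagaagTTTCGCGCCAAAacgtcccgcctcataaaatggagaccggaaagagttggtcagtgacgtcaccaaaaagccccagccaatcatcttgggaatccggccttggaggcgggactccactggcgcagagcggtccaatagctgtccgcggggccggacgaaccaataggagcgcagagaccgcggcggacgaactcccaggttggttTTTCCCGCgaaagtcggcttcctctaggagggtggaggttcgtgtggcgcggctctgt
Tyms promoter: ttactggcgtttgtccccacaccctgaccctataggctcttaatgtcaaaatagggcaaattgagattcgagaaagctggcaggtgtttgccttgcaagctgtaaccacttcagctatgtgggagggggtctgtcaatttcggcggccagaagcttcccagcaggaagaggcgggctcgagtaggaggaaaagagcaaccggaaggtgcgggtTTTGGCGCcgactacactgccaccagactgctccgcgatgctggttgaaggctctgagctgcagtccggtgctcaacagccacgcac
Ccne1 promoter: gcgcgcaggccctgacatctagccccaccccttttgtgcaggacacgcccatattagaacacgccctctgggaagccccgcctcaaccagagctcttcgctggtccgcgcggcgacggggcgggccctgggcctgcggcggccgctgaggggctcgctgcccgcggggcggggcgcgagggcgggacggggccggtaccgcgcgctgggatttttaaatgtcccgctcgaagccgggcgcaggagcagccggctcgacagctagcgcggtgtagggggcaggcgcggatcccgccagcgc

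The Mcm2 window, chr4:122918045-122918344 on the minus strand, held 2 overlapping matches, 14 and 10 bases before the start. The Mcm5 window, chr19:13488563-13488862 on the plus strand, held an overlapping pair at 213 and 209 bases and a single match 8 bases before the start. In the Tyms window, chr9:120776034-120776333 on the minus strand, the match began 37 bases before the start. The Ccne1 window, chr1:99927860-99928159 on the minus strand, does not hold these letters, and neither does that of Pcna. Mcm3 and Mcm6, which had no value on the arrays, each held 2 matches.

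E2F-type letters were found in 5 of 7 member windows, or 71.4%. They were in 2.14% of all 33469 promoter windows, and in 3.15% of 11909 windows of genes on the arrays. Among the mitotic genes, a list of 56 cell division genes, 1 of 49 windows held them (2.04%). The CHR-type letters TTTGAA, searched on both strands, were in 33 of 49 mitotic windows (67.3%) and 1 of 7 member windows (14.3%), that of Mcm2. They were in 18.3% of all windows and 15.3% of windows of genes on the arrays, near the share of the members. Of the wider pathway, 11 of 21 windows of origin licensing and helicase genes held E2F-type letters, as did 15 of 35 of replication fork genes. The share was 2 of 20 for nucleotide supply and 2 of 14 for G1 cyclins, kinases and E2F factors. A match is a run of letters and not a measured binding site.

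**Figure D1:**
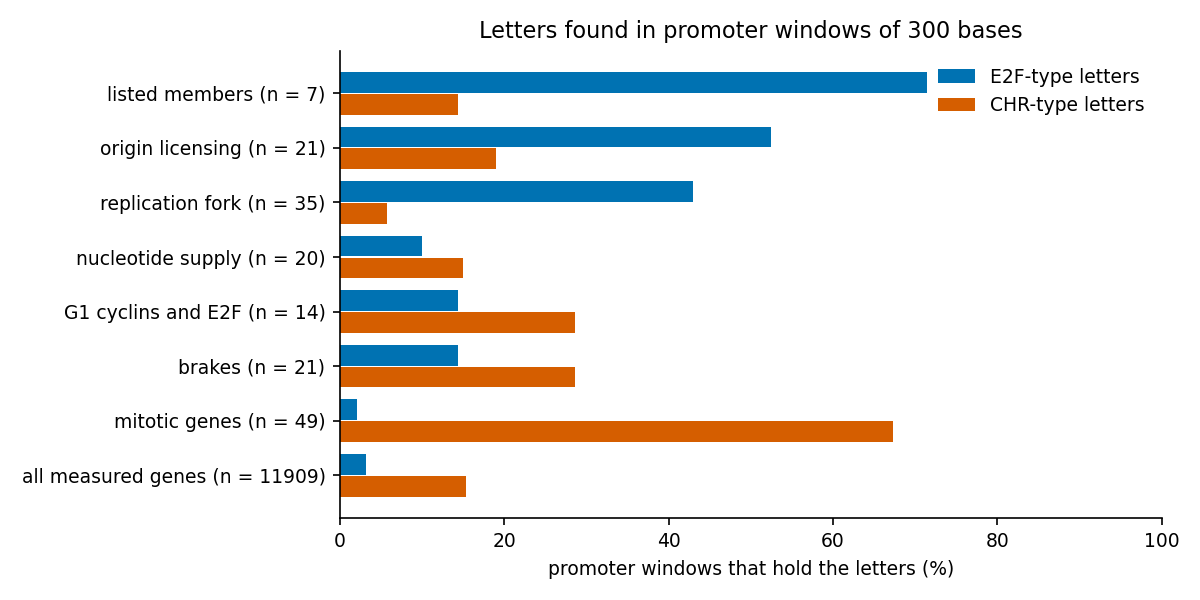
Share of promoter windows (%, horizontal axis) that hold E2F-type letters (blue) or CHR-type letters (orange), for each gene list, with the number of windows in brackets. The E2F-type share is 71.4% in the listed members and 2.04% in the mitotic genes, whereas the CHR-type share is 14.3% and 67.3%.

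Values below are deposited probe set intensities on a linear scale, or differences on the log2(intensity + 16) scale where that is said. All 8 members lay above the range of olfactory and vomeronasal receptor probe sets, taken as genes that liver should not express. The bound was an intensity of 71.0, the 95th percentile of 971 such probe sets, and 38.12% of all probe sets lay within it. The median intensity per array ranged from 89.8 to 118. The arrays also differed in the spread of their signals: the interquartile range was 2.07 to 2.62 log2 units with NO-naproxen, 2.20 to 2.53 with naproxen and 1.94 to 2.37 in controls. The 2 narrowest arrays were control 3 and control 4. Hepatocyte markers were bright on all arrays, with 14 of 16 measured and 0 within the receptor range. Whole liver was measured, so that fewer cells of a type and less RNA per cell cannot be told apart.

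Among the cyclins, the E1 cyclin stood below control with both drugs. Ccne1 had intensities of 138.64, 125.42, 171.22 and 107.92 with NO-naproxen, 136.17, 113.64, 92.886 and 125.78 with naproxen, and 185.7, 145.83, 216.93 and 188.73 in controls. All 4 naproxen arrays were below all 4 control arrays, and 1 NO-naproxen array overlapped the controls. Ccne2, which encodes the other E cyclin, read 218.94, 227.07, 200.41 and 219.61 with NO-naproxen, 328.63, 228.64, 324.21 and 227.2 with naproxen, and 188.83, 270.56, 192.92 and 179.5 in controls. The naproxen arrays split into a bright and a dim pair, and 3 of 4 controls were below every drug-fed rat. For Ccnd1 the values were 835.06, 935.84, 744.38 and 571.38 with NO-naproxen, 689.33, 427.65, 508.36 and 727.63 with naproxen, and 784.22, 813.6, 541.91 and 526.89 in controls. The 3 diets overlapped for Ccnd1, and the controls fell into a bright and a dim pair.

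Of the origin factors, Cdc6 gave 118.69, 153.7, 152.03 and 149.24 with NO-naproxen, 137.86, 171.04, 154.59 and 171.23 with naproxen, and 160.98, 238.73, 194.45 and 175.73 in controls. All 4 NO-naproxen arrays were below all 4 controls, and 3 of them were within a few units of each other. Mcm2 read 150.4, 155.64, 138.67 and 71.281 with NO-naproxen, 118.98, 99.22, 95.332 and 119.04 with naproxen, and 127.47, 113.46, 111.09 and 83.866 in controls. The first 3 NO-naproxen arrays were above every naproxen and control array, while the fourth was the lowest of all. Mcm5 read 365.39, 316.94, 511.57 and 341.63 with NO-naproxen, 340.71, 436.88, 354.07 and 360.82 with naproxen, and 491.21, 348.38, 487.96 and 589.04 in controls. For this subunit 3 of 4 controls lay above all naproxen arrays, while NO-naproxen 3 was above all controls but control 4. The diet with the highest mean was NO-naproxen for Mcm2 and control for Mcm5, in both cases with overlap between diets.

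At the fork, the clamp gene Pcna had 124.33, 148.17, 126.29 and 85.022 with NO-naproxen, 138.73, 120.48, 75.994 and 154.05 with naproxen, and 98.932, 89.721, 93.204 and 74.802 in controls. In each drug group 3 of 4 arrays were above all controls and 1 was among them. Tyms had 274.62, 349.2, 195.06 and 179.09 with NO-naproxen, 272.32, 192.32, 185.88 and 248.48 with naproxen, and 147.17, 178.88, 190.32 and 115.54 in controls. The groups touched at 1 control array, control 3, which was above 1 array of each drug.

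**Figure D2:**
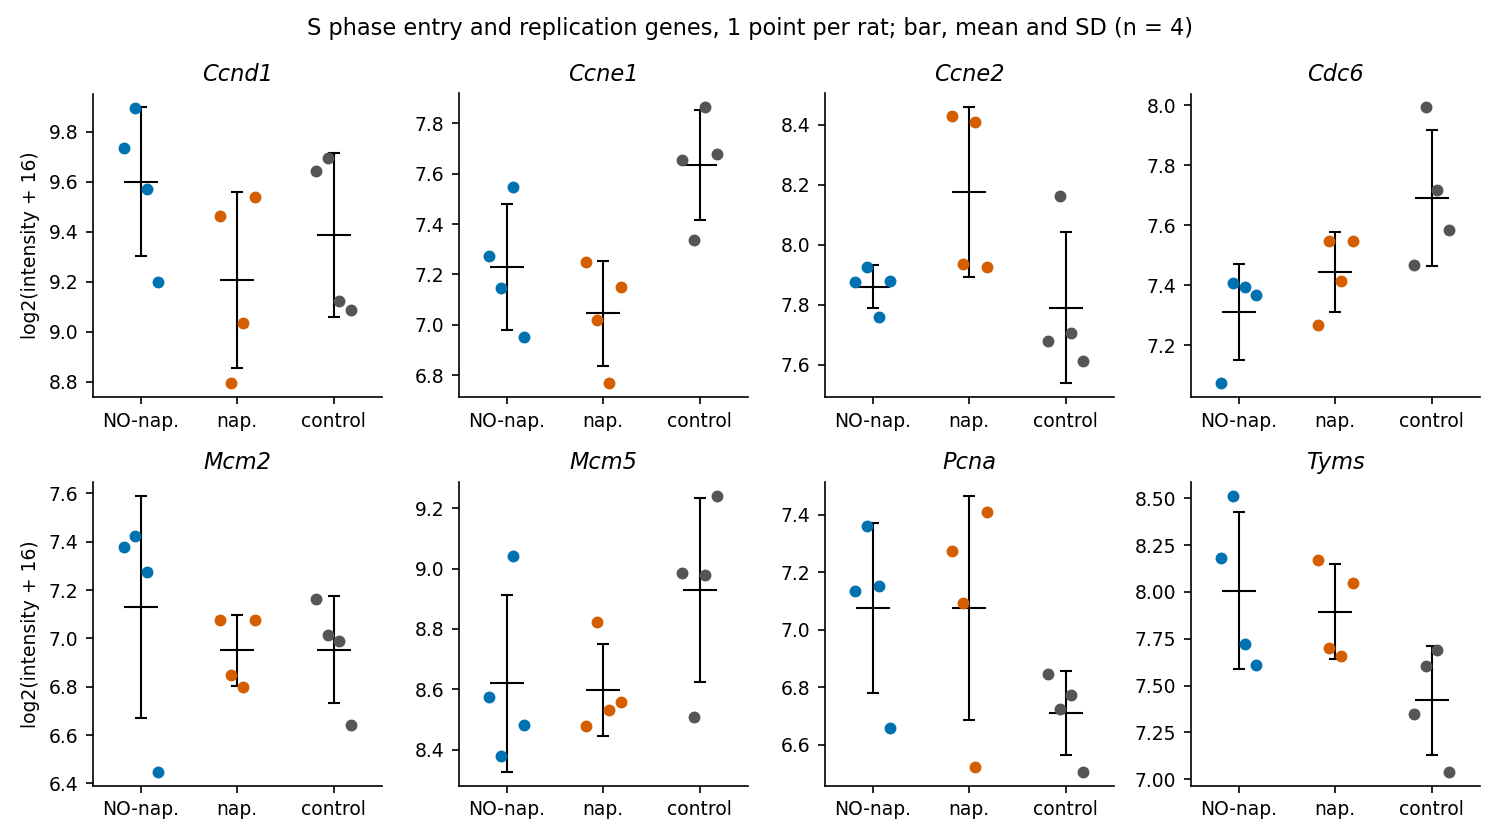
Level of each measured member on the log2(intensity + 16) scale (vertical axis, a separate range per panel) in livers of NO-naproxen, naproxen and control rats; 1 point per rat, bars show the mean and SD of 4. Ccne1 on naproxen and Cdc6 on NO-naproxen lie wholly below control, Mcm2 has a single low NO-naproxen array, and Tyms and Pcna lie mostly above control.

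No member passed the limma test in any of the 3 comparisons after Benjamini-Hochberg adjustment over all 19418 probe sets, and neither did any other probe set. The share called at an adjusted p under 0.05 was 0% in each comparison. The smallest adjusted p over all probe sets was 0.245 for naproxen against control, 0.468 for NO-naproxen against control and 1 for NO-naproxen against naproxen. The differences that follow are therefore measured values, each with its SE from 4 arrays per diet. The comparisons with control use the same 4 control arrays, and so their values are set side by side and not counted as separate evidence.

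In livers of naproxen-fed rats, Ccne1 was at 7.05 ± 0.21 against 7.63 ± 0.22 in controls on the log2 scale (SD, n = 4). The log2 fold change was -0.59 ± 0.18 (SE), with a 95% interval of -0.97 to -0.21, and limma gave an unadjusted p of 0.005029 and an adjusted p of 0.3814. Tyms differed by 0.47 ± 0.22 and Ccne2 by 0.39 ± 0.18, each with an unadjusted p just under 0.05. These 3 members, or 3 of 8, are read against 12.7% of all probe sets at an unadjusted p under 0.05. The remaining log2 fold changes were 0.36 ± 0.21 for Pcna, 0.00 ± 0.21 for Mcm2, -0.18 ± 0.22 for Ccnd1, -0.25 ± 0.17 for Cdc6 and -0.33 ± 0.19 for Mcm5. Cyclins E1 and E2 thus had differences of opposite sign, though that of Ccne2 was 0.17 with the spread of the arrays as a covariate.

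The series design names a criterion of an unadjusted p under 0.05 with a fold of at least 1.5. Ccne1 was the 1 member of 8 past it with naproxen, at 1.504-fold higher in control, on the edge of the criterion, and the count was 0 with the spread of the arrays as a covariate and without any 1 of naproxen 2, naproxen 3, control 1, control 3 or control 4. The share of all probe sets past it was 5.85%. Ccne1 was also the 1 member whose groups did not overlap, which was so for 4.5% of all probe sets. The members' median log2 fold change was -0.09, with 3 of 8 above 0, against a median of -0.03 over all probe sets, with 45.9% above 0.

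With NO-naproxen, Tyms had the largest difference from control, 8.01 ± 0.42 against 7.42 ± 0.29 (SD, n = 4). Its log2 fold change was 0.59 ± 0.22 (SE, 95% interval 0.12 to 1.05), with an unadjusted limma p of 0.01783 and an adjusted p of 0.4682. Ccne1 differed by -0.40 ± 0.18 and Cdc6 by -0.38 ± 0.17, at unadjusted p-values of 0.0401 and 0.0349. Together 3 of 8 members had an unadjusted p under 0.05, against 10.4% of all probe sets. Pcna differed by 0.37 ± 0.21, Ccnd1 by 0.21 ± 0.22, Mcm2 by 0.18 ± 0.21, Ccne2 by 0.07 ± 0.18 and Mcm5 by -0.31 ± 0.19.

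Tyms was the 1 member past the criterion with NO-naproxen, against 3.8% of all probe sets, at a fold of 1.5, the threshold itself. This count too was 0 with that covariate, and 0 without any 1 of NO-naproxen 1, NO-naproxen 2, control 1 or control 4. Cdc6 was the 1 member with separate groups, against 3.35% of all. The median over the members was 0.12 log2 units, with 5 of 8 above 0, and that over all probe sets was 0, with 50.1% above 0. Mcm2 depended on a single rat: without NO-naproxen 4 its log2 fold change was 0.41, against 0.18 with all arrays. That array was also the lowest of its group for Ccnd1, Ccne1, Pcna and Tyms. Without it the log2 fold change from control was 0.35 for Ccnd1, 0.50 for Pcna and 0.72 for Tyms. That of Ccne1 was smaller, at -0.31 against -0.40 with all arrays.

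Between the drugs, which were fed in different amounts, the members' log2 fold changes lay between -0.32 and 0.39. None had an unadjusted p under 0.05, against 1.92% of all probe sets, and none was past the criterion, against 0.572%. Ccne2 was the 1 member with separate groups, at -0.32 ± 0.18 log2 units (SE, 95% interval -0.70 to 0.07), though the nearest arrays were almost equal, at 227.07 with NO-naproxen and 227.2 with naproxen. Groups did not overlap for 1.17% of all probe sets. Ccnd1 was higher with NO-naproxen by 0.39 ± 0.22 (95% interval -0.08 to 0.86). Pcna differed by 0.00 ± 0.21 (95% interval -0.44 to 0.44) and Mcm5 by 0.02 ± 0.19 (95% interval -0.39 to 0.43). The members' median was 0.07, beside 0.06 over all probe sets.

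**Figure D3:**
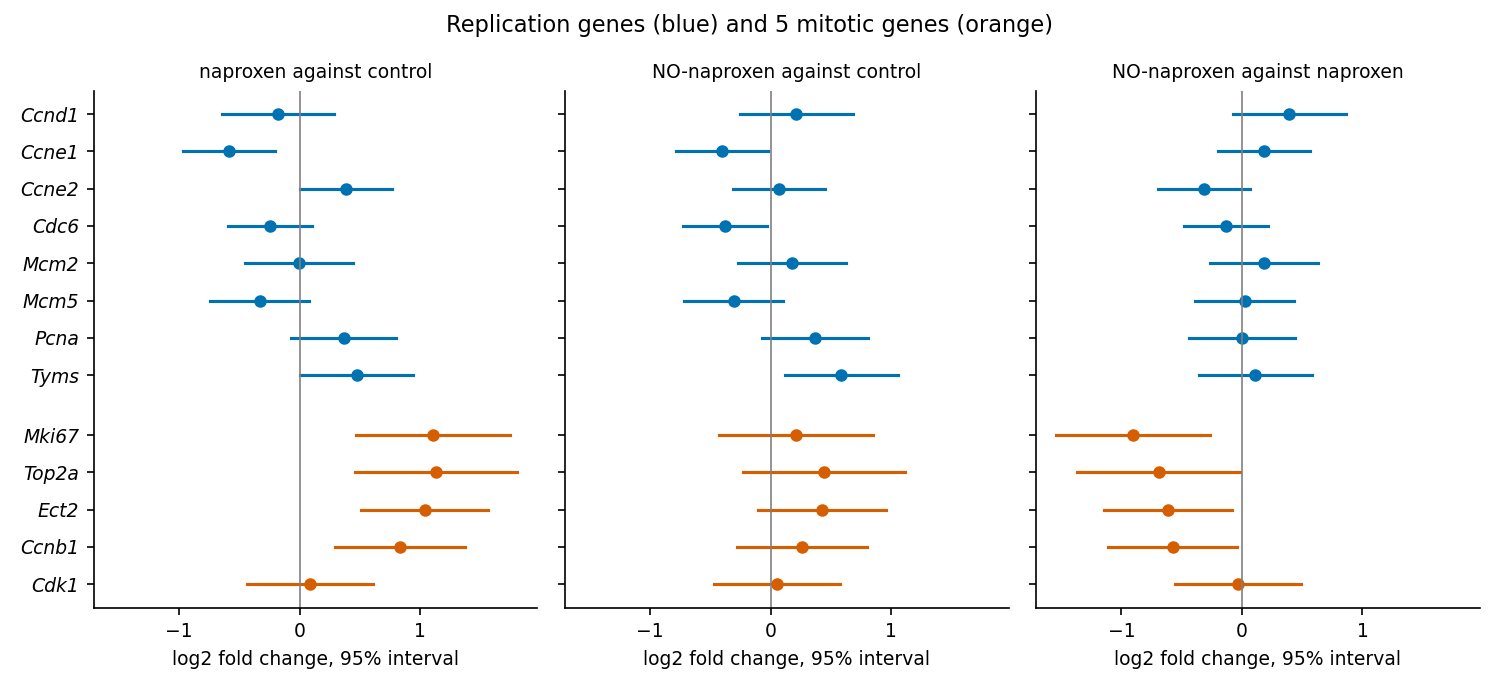
Log2 fold changes (horizontal axis) with 95% intervals for the 8 measured members (blue) and 5 mitotic genes (orange), 1 panel per comparison; values right of 0 are higher in the first-named diet. With naproxen Ccne1 lies at -0.59 while Mki67, Top2a and Ect2 lie above 1, and against naproxen these 3 lie below 0 with NO-naproxen. Ccnb1 and Cdk1 lie at 0.83 and 0.09 with naproxen against control, where the median of all 44 mitotic genes is 0.22.

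The wider pathway was described with lists of other genes, whose counts at an unadjusted p under 0.05 stand beside 12.7% of all probe sets with naproxen (613 higher and 1845 lower) and 10.4% with NO-naproxen (1067 higher and 944 lower). Of 17 measured genes of origin licensing and helicase activation, 9 were above 0 with naproxen, 1 higher and 1 lower at an unadjusted p under 0.05, and the median was 0.19. Orc2, a subunit of the origin recognition complex, differed by 0.65 ± 0.20 with naproxen, with separate groups, and by 0.58 ± 0.20 with NO-naproxen. Recql4, a helicase, was at -0.63 ± 0.28 with naproxen, and Ticrr, which helps to load Cdc45, at -0.40 ± 0.20. Orc4 differed by 0.58 ± 0.30 and the MCM-binding protein gene Mcmbp by 0.42 ± 0.22 with NO-naproxen. None of these passed after adjustment. Orc2 was the 1 gene of 17 with separate groups with naproxen, beside 4.5% of all probe sets. From each list the 3 genes with the smallest p against control for each drug are named.

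Of 27 replication fork genes, 15 were above 0 with naproxen and 16 with NO-naproxen, with medians of 0.09 and 0.05. In each comparison 1 was higher and 2 lower at an unadjusted p under 0.05. The Pcna-binding factor Pclaf had the lowest p with naproxen, 0.79 ± 0.25, but its mean lay within the receptor range. The catalytic polymerase delta gene Pold1 differed by -0.62 ± 0.26 and the histone chaperone gene Chaf1a by -0.52 ± 0.21 with naproxen. With NO-naproxen, Chaf1a was at -0.50 ± 0.21, the polymerase epsilon subunit gene Pole2 at -0.48 ± 0.20 and the histone chaperone gene Ssrp1 at 0.60 ± 0.20. Ssrp1 was the 1 gene of 27 with separate groups in that comparison, beside 3.35% of all probe sets.

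Nucleotide supply genes, apart from Tyms, were above 0 for 8 of 15 with naproxen and 10 of 15 with NO-naproxen, and 1 was higher and 1 lower at an unadjusted p under 0.05 in each. Dut, which clears dUTP and makes the substrate of Tyms, differed by 0.80 ± 0.23 with naproxen and 0.77 ± 0.23 with NO-naproxen, though its level lay within the receptor range. Dhodh, of pyrimidine synthesis, was at -0.49 ± 0.21 with naproxen and -0.45 ± 0.21 with NO-naproxen. Mthfd2, of mitochondrial folate metabolism, was at -0.74 ± 0.37 with naproxen and Ctps1, which makes CTP, at -0.38 ± 0.22 with NO-naproxen, both within the receptor range.

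Of 13 G1 cyclins, kinases and E2F factors, 7 were above 0 in each comparison with control, and 3 of 13 with naproxen and 2 of 13 with NO-naproxen had an unadjusted p under 0.05, with differences above 0. The shares of all probe sets were 12.7% and 10.4%. Ccnh, the cyclin of the CDK-activating kinase, differed by 0.39 ± 0.17 with naproxen and 0.46 ± 0.17 with NO-naproxen. Tfdp2, a partner of E2F factors, was at 0.49 ± 0.23 with naproxen and 0.70 ± 0.23 with NO-naproxen. E2f5, a repressive E2F, was at 0.44 ± 0.19 with naproxen, within the receptor range, and E2f7, another repressor, at -0.39 ± 0.19 with NO-naproxen.

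Among 16 brakes on S phase entry, 10 were above 0 with naproxen and 9 with NO-naproxen, and 2 and 3 of the 16 had an unadjusted p under 0.05, with differences above 0. These counts stand beside 12.7% and 10.4% of all probe sets. Rbl2, the retinoblastoma relative p130 of quiescent cells, differed by 0.57 ± 0.23 with naproxen and by 0.52 ± 0.23 with NO-naproxen. It was the 1 gene of 16 with separate groups with naproxen, beside 4.5% of all probe sets. The growth-restraining factor Klf6 was at 0.48 ± 0.22 with naproxen and 0.74 ± 0.22 with NO-naproxen. Foxo3, which can induce inhibitors of cyclin kinases, was at 0.31 ± 0.19 with naproxen and 0.42 ± 0.19 with NO-naproxen. No gene of these 5 lists passed after adjustment over all probe sets.

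Whether the members moved with mitotic genes was asked from the mean of 44 measured mitotic genes on each array, of which 18 lay within the receptor range. This mean was 6.65 ± 0.20 with NO-naproxen, 6.87 ± 0.17 with naproxen and 6.61 ± 0.19 in controls (SD, n = 4). Mki67, the proliferation marker, had intensities of 62.822, 88.859, 86.473 and 19.568 with NO-naproxen, 148.37, 124.99, 118.93 and 101.19 with naproxen, and 82.05, 49.247, 34.644 and 36.562 in controls. All naproxen arrays were above all others. Its log2 fold change was 1.11 ± 0.30 with naproxen against control and -0.90 ± 0.30 with NO-naproxen against naproxen, with its mean at the edge of the receptor range. Top2a, the topoisomerase that untangles chromosomes, differed by 1.13 ± 0.32, the cytokinesis regulator Ect2 by 1.04 ± 0.25 and the mitotic cyclin gene Ccnb1 by 0.83 ± 0.25 with naproxen. Cdk1, the kinase partner of cyclin B1, differed by 0.09 ± 0.25.

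In naproxen livers 30 of 44 mitotic genes were above control, with a median of 0.22, and 12 were higher and 2 lower at an unadjusted p under 0.05, beside 12.7% of all probe sets, 613 higher and 1845 lower. With NO-naproxen the median was 0.00, with 22 of 44 above control and 2 at that p, beside 10.4% of all probe sets. Between the drugs 10 of 44 were higher with NO-naproxen than with naproxen, with a median of -0.24, and 8 were lower at that p, beside 1.92% of all probe sets, 248 higher and 125 lower. The members' medians in the same 3 comparisons were -0.09, 0.12 and 0.07. None of the mitotic genes passed after adjustment. The mitotic list was chosen with earlier results of these data known, so its counts are descriptions and not separate evidence.

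The difference between each member and the mitotic mean was then tested directly, by fitting every probe set minus that mean. With naproxen, Ccne1 was lower than control relative to the mitotic mean by -0.85 ± 0.19 log2 units, with an adjusted limma p of 0.02917. It was 1 of 8 members called, beside 12.9% of all probe sets, of which 9 were called higher and 2488 lower. The mitotic mean was itself higher with naproxen, by 0.265 log2 units, and subtracting it lowers every probe set by that amount. The call is therefore not read as particular to Ccne1 or to the members. The count of members called was 0 with the spread of the arrays as a covariate and without naproxen 1, 2 or 3 or control 3 or 4. Mcm5 was at -0.60 ± 0.20 (adjusted p = 0.05338 by limma) and Cdc6 at -0.51 ± 0.22 (adjusted p = 0.1167 by limma). Ccnd1 was at -0.45 ± 0.24, with a 95% interval of -0.93 to 0.04. Mcm2 was at -0.27, and Tyms, Ccne2 and Pcna were at 0.21, 0.12 and 0.10, each with a 95% interval that spans 0. No member was called with NO-naproxen against control or against naproxen, and 0% of all probe sets were.

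Array by array, the members did not track the mitotic mean as a set. Over the 12 rats Pcna had the strongest relation, with Pearson's r = 0.644 (permutation p = 0.0259, adjusted p = 1) and Spearman's rho = 0.734 (permutation p = 0.00879, adjusted p = 0.774). Adjustment was over 19374 probe sets outside the mitotic list, of which 0 passed and 4.42% had an unadjusted p under 0.05 for r. A lower r than that of Pcna was found for 98.2% of them. Without naproxen 2 and NO-naproxen 4, the arrays farthest from the median of the mitotic mean, r was 0.645, and for deviations from the diet means it was 0.666.

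The other members had weaker relations: r was 0.391 for Mcm2, 0.25 for Tyms, 0.175 for Mcm5, 0.041 for Ccne2, -0.01 for Ccne1, -0.069 for Ccnd1 and -0.286 for Cdc6. The permutation p-values of these 7 lay between 0.208 and 0.974, with an adjusted p of 1 for each. Spearman's coefficient was 0.448, 0.538, 0.049, 0.28, -0.14, -0.035 and -0.245 for the same members in that order, with permutation p-values between 0.0753 and 0.921 and adjusted ones between 0.863 and 1. Without the same 2 arrays r was 0.344, 0.298, 0, 0.016, -0.061, 0.181 and -0.556. For Mcm2 r was 0.121 without NO-naproxen 4 alone and 0.566 without naproxen 2 alone. The median r over all probe sets was 0.078, and from the 10th to the 90th percentile it ran from -0.264 to 0.446. Only Pcna lay above this range, and Cdc6 lay just below it, with a lower r for 8.6% of probe sets. Such a range leaves out probe sets at both ends by definition, and neither member passed after adjustment.

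Within diets the picture of the cyclins differed. For deviations from the diet means, r with the mitotic mean was 0.722 for Ccne1 and -0.561 for Ccne2, so that the E cyclins were of opposite sign there too. It was 0.6 for Mcm2, 0.575 for Mcm5, 0.218 for Ccnd1, 0.124 for Tyms and -0.292 for Cdc6. For the same deviations, r with the interquartile range of the array was -0.489 for Ccne1 and 0.791 for Ccne2, also of opposite sign. It was -0.865 for Mcm5, 0.648 for Tyms, 0.547 for Ccnd1, 0.304 for Mcm2, 0.128 for Pcna and 0.048 for Cdc6. All these values describe 12 arrays and carry no test, and the part of the array spread in them was not tested. Values of all probe sets for such deviations were not set beside them, so their size cannot be judged against the rest of the array.

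**Figure D4:**
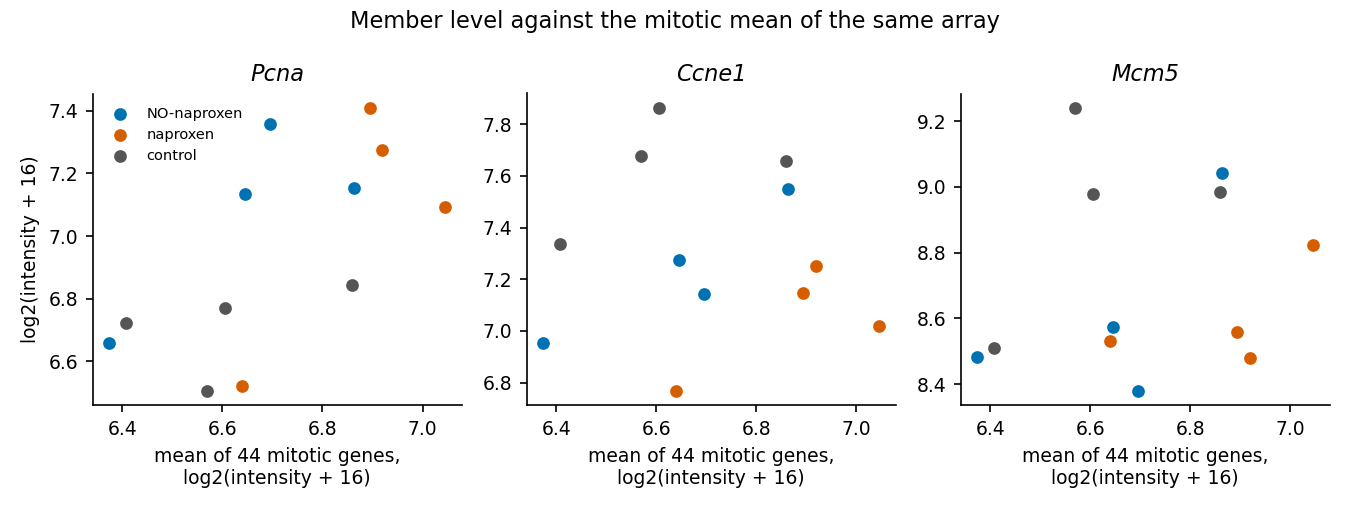
Level of Pcna, Ccne1 and Mcm5 (vertical axes) against the mean of 44 mitotic genes on the same array (horizontal axes), all as log2(intensity + 16), 1 point per rat, coloured by diet. Pcna is higher where the mitotic mean is higher (r = 0.644), and for Ccne1 3 of the 4 controls are the highest points.

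Some members followed the spread of the arrays more closely than the mitotic mean. The correlation with the interquartile range of the array was -0.905 for Mcm5, 0.775 for Tyms, 0.708 for Ccne2 and -0.664 for Ccne1. These values are descriptions over 12 arrays, since the spread is read from the same signals. A lower r than that of Mcm5 was found for 2.4% of all probe sets. The other 3 were less extreme among all probe sets: a lower r was found for 21.7% in the case of Ccne1, 86.2% for Ccne2 and 90.4% for Tyms. The controls, which include the 2 arrays of narrowest spread, had the lowest mean of Tyms and the highest means of Mcm5 and Ccne1 among the diets. With the interquartile range as a covariate, the log2 fold change with naproxen was -0.45 for Ccne1, -0.06 for Mcm5 and 0.21 for Tyms. With NO-naproxen it was -0.26 for Ccne1, -0.01 for Mcm5, 0.30 for Tyms and -0.39 for Cdc6. For Ccne2 it was 0.17 with naproxen and -0.16 with NO-naproxen. The mitotic mean had an r of -0.043 with the same range.

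**Figure D5:**
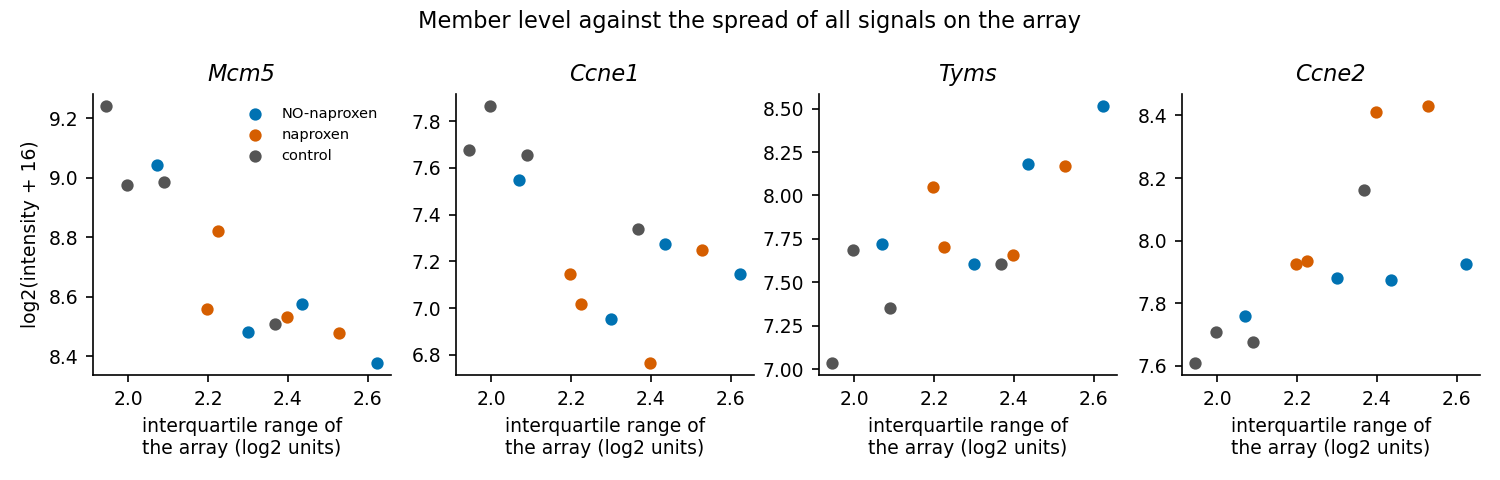
Level of Mcm5, Ccne1, Tyms and Ccne2 as log2(intensity + 16) (vertical axes) against the interquartile range of all log2 signals on the array (horizontal axes), 1 point per rat, coloured by diet. Mcm5 and Ccne1 are lower, and Tyms and Ccne2 higher, on arrays of wider spread (r = -0.905, -0.664, 0.775 and 0.708).

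Among themselves the members formed no single block. Over 28 pairs, r over the 12 arrays ran from -0.722 for Tyms with Mcm5 to 0.803 for Tyms with Pcna, and 13 pairs were above 0. Tyms, Pcna and Mcm2 went together, with r = 0.644 for Tyms with Mcm2 and 0.702 for Mcm2 with Pcna. Mcm2 also followed Ccnd1 (r = 0.767). Ccne1 followed Mcm5 (r = 0.741) and ran against Ccne2 (r = -0.657), and the subunits of 1 helicase, Mcm2 and Mcm5, had an r of -0.151. These pairs share arrays and the spread described above, and are given without a test.

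Of 9805 genes above the receptor range, those most like Ccne1 over the 12 arrays were Kcnh8 (r = 0.929), Kcp (0.925), Spag6l (0.924), Morc1 (0.919) and Adcy2 (0.913). The mean of Mcm2 and Mcm5, the measured helicase members, was most like Crnn (0.883), Ptger1 (0.863), Adcy3 (0.863), Nudt22 (0.837) and Klhl1 (0.834). No listed replication gene was among either 5, but such genes are few among the 9805, so little can be read from this. Mcm2 and Mcm5 had an r of -0.151 with each other, so their mean need not stand for either.

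Other cell types of the liver were followed through markers. The summed intensity of 7 endothelial markers was 2018 to 2727 with NO-naproxen, 2114 to 2662 with naproxen and 1522 to 2174 in controls, with none within the receptor range. The 7 log2 fold changes from control were above 0 with each drug. The sum of 16 Kupffer cell and macrophage markers was 8775 to 14410 with NO-naproxen, 9184 to 12270 with naproxen and 9075 to 12080 in controls, and 13 and 15 of 16 were above control. Of 10 stellate cell markers, whose sums were 3666 to 4908, 3663 to 4707 and 3004 to 4484 in the same order, 8 and 10 were above control. Lymphocyte markers went the other way, with 2 of 8 above control with NO-naproxen and 1 of 8 with naproxen, and medians of -0.21 and -0.31 log2 units. Of these 8, 5 lay within the receptor range, among them Cd3d, Cd2 and Ms4a1, and their sums were 672 to 1044, 681.9 to 919.6 and 816.3 to 938.1 in NO-naproxen, naproxen and control livers. Of 5 erythroid markers 2 were above control with each drug, with medians of -0.20 and -0.19 for NO-naproxen and naproxen. Of 5 bile duct markers 3 were above control with NO-naproxen and 2 with naproxen, with medians of 0.02 and -0.04. Hepatocyte markers summed to 104500 to 122800 with NO-naproxen, 105000 to 115200 with naproxen and 104500 to 121000 in controls. These counts stand beside 50.1% of all probe sets above control with NO-naproxen and 45.9% with naproxen. On the array of narrowest spread, control 4, the mean log2 level was 7.70 for endothelial and 6.89 for lymphocyte markers. On the widest, NO-naproxen 2, these means were 8.52 and 6.56. The part of the array spread in the marker differences was not tested, nor was the part of these cell types in the members' differences.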

How the data were processed

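Liver RNA of 12 rats was labelled with biotin after removal of ribosomal RNA and hybridised to whole-transcript arrays, per the labels' protocols. The authors deposited linear intensities per probe set. Per the submitters' processing notes, Affymetrix Expression Console 1.1.1 and build rn4 were used, and how signals were summarised or normalized was not stated there. The tests had been planned for log2 values. As the intensities were linear, 16 was added before log2, which understates the differences of dim probe sets.

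Probe sets with 1 symbol (13327 of 19418) were named, 620 with several symbols and 5471 with none were not, and 13232 matched RefSeq through Entrez identifiers. For 102 genes with several probe sets the brightest was kept. All arrays entered 1 fit in limma 3.58.1 (R 4.3.3, lmFit and eBayes, 2-sided, diet as the only term) with Benjamini-Hochberg adjustment over all probe sets. Non-overlap means that every array of 1 diet lay above every array of the other. Correlations used 100000 permutations. The number of arrays limits the precision, with a median SE of 0.208.

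Members and lists were chosen with earlier results of these data known. All members and 5 mitotic genes were named, as were the 3 genes of each pathway list with the smallest p against control for each drug, and the 5 genes most like Ccne1 and the Mcm mean, for which Mcm2 and Mcm5 were at hand. Replicate numbers came from the titles. Same-numbered arrays had correlations of deviations between -0.382 and 0.481 and no label ties them, so they were not paired. Alternatives were added constants of 1 and 64, quantile normalization, median centring, trended spread, array weights, only the groups compared, a dim filter, the spread as a covariate, leaving out the 2 narrowest arrays, a replicate block and each array left out. The fits and correlations were tested on simulated data. Plots were made in Python 3.11.15 (matplotlib 3.10.9).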

Additional observations from a re-analysis of the deposited data

Results flagged for a closer look

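Of 27 groups of 4 arrays checked, 2 had an array far from the other 3 of its diet, and chance gives about 1 in 20. Cdc6 was at 7.073 on NO-naproxen 1, against 7.368 to 7.407 on the other NO-naproxen arrays (log2 scale). Mcm2 was at 6.448 on NO-naproxen 4, against 7.273 to 7.423 on the others. Without NO-naproxen 1 the Cdc6 log2 fold change from control was -0.301, and without NO-naproxen 4 that of Mcm2 was 0.405. NO-naproxen 4 also had the lowest Mki67 intensity of all arrays, 19.568, and the lowest mitotic mean, 6.374.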

How the results depend on the processing

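Where the mitotic mean was not subtracted, no member passed the adjusted test in any comparison under any setting run. The number of arrays limits what could pass. With naproxen the median over the whole array was -0.034 as deposited and 0.081 after median centring, a shift of over 0.1 that moved the members' median to 0.024, while the members' median minus that of all was -0.057 in both. The 1 member called with naproxen relative to the mitotic mean became 0 with a constant of 1, with the interquartile range as a covariate and without the 2 narrowest arrays, 2 with a constant of 64, with array weights and with the replicate block, and 3 after quantile normalization. Leaving out single arrays gave 0 to 3, with 0 without naproxen 1, 2 or 3 or control 3 or 4, 2 without NO-naproxen 3 or control 2, and 3 without control 1. The 1 member past the criterion became 0 in both comparisons with control with a constant of 64, after quantile normalization, with the covariate and without the narrowest arrays. It ranged from 0 to 1 with arrays left out: 0 for naproxen without naproxen 2 or 3 or control 1, 3 or 4, and 0 for NO-naproxen without NO-naproxen 1 or 2 or control 1 or 4. Probe sets called over the whole array went from 0 to 3 for naproxen and from 0 to 4 for NO-naproxen with arrays left out (for naproxen 3 without control 1 and 2 without control 2, for NO-naproxen 4 without control 2), and to 2 for NO-naproxen with array weights. Probe sets past the criterion numbered 1135, 738 and 111 in the 3 comparisons (naproxen, then NO-naproxen against control, then NO-naproxen against naproxen), 191 to 1521, 154 to 2527 and 8 to 304 under other settings, and 574 to 2973, 284 to 2570 and 98 to 331 with single arrays left out. The members' median with NO-naproxen was -0.018 with the covariate and -0.066 without the narrowest arrays, and between the drugs it ran from 0.013 to 0.192 with arrays left out, the highest without NO-naproxen 4.

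Signs turned for small values. With naproxen Mcm2 was at 0.123 after quantile normalization, 0.113 after centring and -0.107 to 0.068 with arrays left out. With NO-naproxen Ccne2 was at -0.163 with the covariate and -0.061 without the narrowest arrays, and Ccnd1 at -0.026 and -0.071. Between the drugs Pcna was at -0.003 with a constant of 64 and with the covariate, -0.059 after quantile normalization, -0.046 after centring and -0.05 with array weights, Mcm5 at -0.05 after quantile normalization, -0.024 after centring and -0.053 with array weights, and with arrays left out Pcna ran from -0.183 to 0.14, Mcm5 from -0.119 to 0.102 and Tyms from -0.057 to 0.244. Correlations with the mitotic mean turned for Ccne1 (0.011 with a constant of 1, 0.237 without the narrowest arrays, 0.722 for deviations from diet means, -0.222 to 0.154 with arrays left out), Mcm5 (-0.226 after quantile normalization, -0.141 after centring), Ccne2 (-0.116 without the narrowest arrays, -0.561 for deviations, -0.181 to 0.187), Ccnd1 (0.218 for deviations, -0.191 to 0.3) and Cdc6 (-0.427 to 0.054). The replicate block turned no other call. The cause of these shifts was not tested.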
